A study of Mus musculus with 76 samples.

Results

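The clustered histone genes of the mouse are the genes whose symbol in the GENCODE M21 annotation begins with Hist1h, Hist2h, Hist3h or Hist4h. They encode the linker histone H1 and the core histones H2A, H2B, H3 and H4. The annotation lists 70 such genes. Of these, 43 are among the 14823 genes of the count table and form the family described here, and the other 27 were not analysed here. The 43 were 3 H1, 11 H2A, 10 H2B, 11 H3 and 8 H4 genes, with 34 on chromosome 13, 6 on chromosome 3 and 3 on chromosome 11.

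RNA had been sequenced from the dorsal forebrain, the region that holds the developing cortex, of 76 C57BL/6J embryos at embryonic day 16. Before mating, parents had been given α-cypermethrin, a pyrethroid insecticide, or vehicle for 28 days, made up of 7 days of treatment followed by 3 cycles in which 2 days off alternated with 5 days on, and were paired directly afterwards. The groups are named for the exposed parent and the dose of 0.3 or 10. At dose 0.3 there were 12 embryos each of Paternal_0.3Cyp, Maternal_0.3Cyp and Both_0.3Cyp. At dose 10 there were 10 of Paternal_10Cyp, 8 of Maternal_10Cyp and 10 of Both_10Cyp. Both parents of the 12 Ctrl embryos had received vehicle. In a paternal or maternal group the other parent had received vehicle. The labels give no unit for the dose and no litter, so that littermates count as separate replicates and p-values measure the spread between embryos. The series names brain transcription after exposure of the parents as its subject, and the question followed here is whether the histone genes of the embryo differed from Ctrl.

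Histones package DNA into nucleosomes, and a dividing cell has to make a new set each time it copies its genome. Most clustered histone genes are transcribed during S phase, and their messenger RNAs end in a conserved stem-loop instead of a poly(A) tail. The stem-loop binding protein Slbp holds this structure during processing and translation, and the mRNAs decay when DNA synthesis stops. Some members also give polyadenylated mRNA in cells that no longer divide. In the embryonic cortex, radial glia and intermediate progenitors divide, while the neurons they produce have left the cell cycle.

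The stem-loops of 6 members on which the results turn are shown because this end decides how such an mRNA is processed. They were read from the GENCODE M21 transcripts (mm10), 5′ to 3′ on the strand of the gene, and the capitals mark the 16 bases of the stem-loop, a stem of 6 paired bases around a loop of 4.
Hist3h2ba: acccaaaGGCTCTTTTCAGAGCCaccttcc
Hist3h2a: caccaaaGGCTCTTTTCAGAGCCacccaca
Hist1h2ag: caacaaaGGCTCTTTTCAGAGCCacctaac
Hist1h1c: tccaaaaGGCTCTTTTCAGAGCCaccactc
Hist1h3c: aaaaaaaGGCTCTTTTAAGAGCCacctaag
Hist1h4i: acttaaaGGCCCTTTTTAGGGCCaccacaa
The capitals lie at chr11:58949349-58949364 (plus strand) in Hist3h2ba, chr11:58955172-58955187 (plus) in Hist3h2a and chr13:23739512-23739527 (plus) in Hist1h1c. A search for GGNNNTTNTNAGNNCC with a paired stem found it in the annotated transcript of 34 of the 43 members, and in 8 further genes of the table, or 0.284% of its genes in all. The letters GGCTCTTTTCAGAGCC occurred in 22 of the 34. The annotated transcript went on for 100 or more bases after the stem-loop in 18 members and for fewer in 16. A poly(A) signal stood near the annotated end in 11 members, Hist3h2ba, Hist3h2a, Hist1h4i and Hist1h1c among them. Some of the 9 members without the stem-loop, such as Hist1h3h, are annotated without untranslated regions, so that the letters could not be found there.

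In this tissue 2 members on chromosome 11 carried most of the family's signal. Hist3h2ba, an H2B gene, averaged 129 CPM (counts scaled to a fixed library total, after TMM normalisation) and Hist3h2a, an H2A gene, 105 CPM over the 76 libraries, and together they held 72.5% of the summed CPM of the 43 members. Per length of transcript, Hist3h2ba stood at 209.7 CPM per kb and Hist3h2a at 48.9 CPM per kb. They were followed by Hist2h2aa2 (H2A) with 21.9, Hist1h1c (H1) with 11.4, Hist1h2bc (H2B) with 11.3, Hist1h4i (H4) with 8.79 and Hist2h2be (H2B) with 6.36 CPM per kb. The H3 genes were lower, with Hist2h3c2 at 2.70 CPM per kb as their highest. The low end per kb was held by Hist1h1d, an H1 gene with 0.0562 CPM per kb. Its annotated transcript is long, with 7425 bases. By CPM it averaged 0.417, and the lowest member was Hist1h2ah with 0.120.

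**Figure D1:**
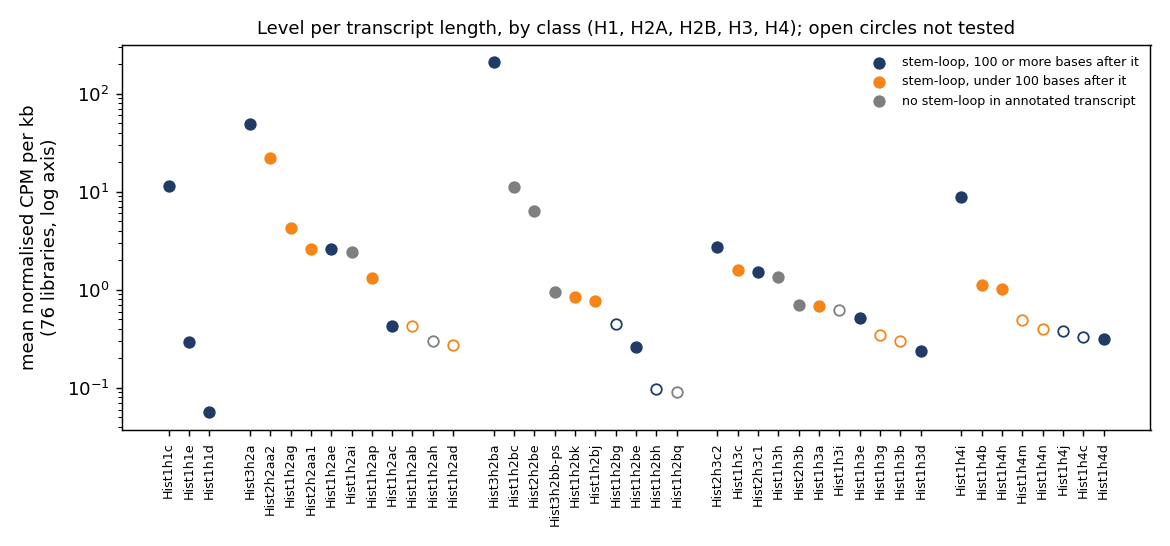
Mean normalised CPM per kb of annotated transcript (log axis) of the 43 members over 76 libraries, grouped by class. Colours give the annotated end of the transcript and open circles the 13 members that were not tested. Hist3h2ba stands at 209.7 and Hist3h2a at 48.9 CPM per kb.

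Members whose annotated transcript continues for 100 or more bases after the stem-loop held both extremes, with a lowest level of 0.0562, a median of 0.439 and a highest of 209.7 CPM per kb (18 members). The 16 members with fewer bases after it ranged from 0.275 to 21.9 with a median of 0.813, and the 9 without an annotated stem-loop from 0.0909 to 11.3 with a median of 0.957 CPM per kb. The annotated length that divides each level includes the bases after the stem-loop, so that these medians are not like for like. How the libraries were selected for poly(A) is not given in the sources used here. The levels of mRNAs with and without a tail therefore cannot be set against each other.

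A filter on low counts left 30 of the 43 members for testing. The 13 removed had mean levels from 0.120 to 0.296 CPM, a median of 4 counts per library and at most 19 counts in any library. The 13 included Hist1h2ah, at 0 counts in 40 of 76 libraries. Copies that resemble each other divide their reads by estimate: a median of 59.7% of a member's 31-base words also occurred in another gene, and the share was over 50% in 25 members. For Hist3h2a it was 32.1%, all with the overlapping gene Trim17. Trim17 itself had a median of 2.44 CPM in Maternal_10Cyp, against 2.73 CPM in Ctrl, with a log2 fold change of -0.13 (edgeR adjusted p = 0.581).

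The libraries held 17.7 to 41.4 M counts, at a median of 19.2 M. Medians by group were 18.6 to 19.5 M, with 26.0 M in Both_10Cyp as the exception, and at the median depth 1 CPM is 19.1 counts. The markers of radial glia (12 of 12), intermediate progenitors (9 of 9) and upper-layer and deep-layer neurons (8 of 8 each) were all measured. A few libraries stood apart. Embryonic globins were high in Paternal_0.3Cyp replicates 3 and 4 and Both_10Cyp replicates 7 and 8, with 11.1 to 82.6 CPM against a median of 0.767 CPM. Markers of the diencephalon, the neighbouring brain region, were high in Paternal_0.3Cyp replicates 6 and 9, Paternal_10Cyp replicate 1 and Ctrl replicate 3, with 104 to 383 CPM against a median of 29.5 CPM.

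The histone genes called against Ctrl in the fit of all 76 libraries were higher, and none was called lower. In Paternal_0.3Cyp 9 of the 30 tested members rose (edgeR's quasi-likelihood test, p adjusted by Benjamini-Hochberg over all genes and under 0.05), among them Hist1h2ag, Hist1h3h, Hist1h3c and the 2 Hist3 genes, where 15.4% of all genes were called higher and 12.2% lower. In Maternal_10Cyp 8 of 30 rose, with 20.4% of all genes called higher and 20.4% lower. In Maternal_0.3Cyp and Both_0.3Cyp 4 of 30 rose in each, against 10.9% and 10.5% of all genes called higher and 12.8% and 11.8% called lower. In Paternal_10Cyp it was 4 of 30, against 10.7% higher and 10.8% lower. In Both_10Cyp it was 2 of 30, against 2.34% higher and 1.58% lower. The share of members called higher was thus 30% in Paternal_0.3Cyp, 26.7% in Maternal_10Cyp, 13.3% in Maternal_0.3Cyp, Both_0.3Cyp and Paternal_10Cyp, and 6.67% in Both_10Cyp. It was close to the share of all genes in Maternal_0.3Cyp, Both_0.3Cyp and Paternal_10Cyp. In Maternal_10Cyp 26.7% stood against 20.4% of all genes, and the value in Both_10Cyp rests on 2 members. Whether the share of members exceeded that of all genes was not tested in any group.

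**Figure D2:**
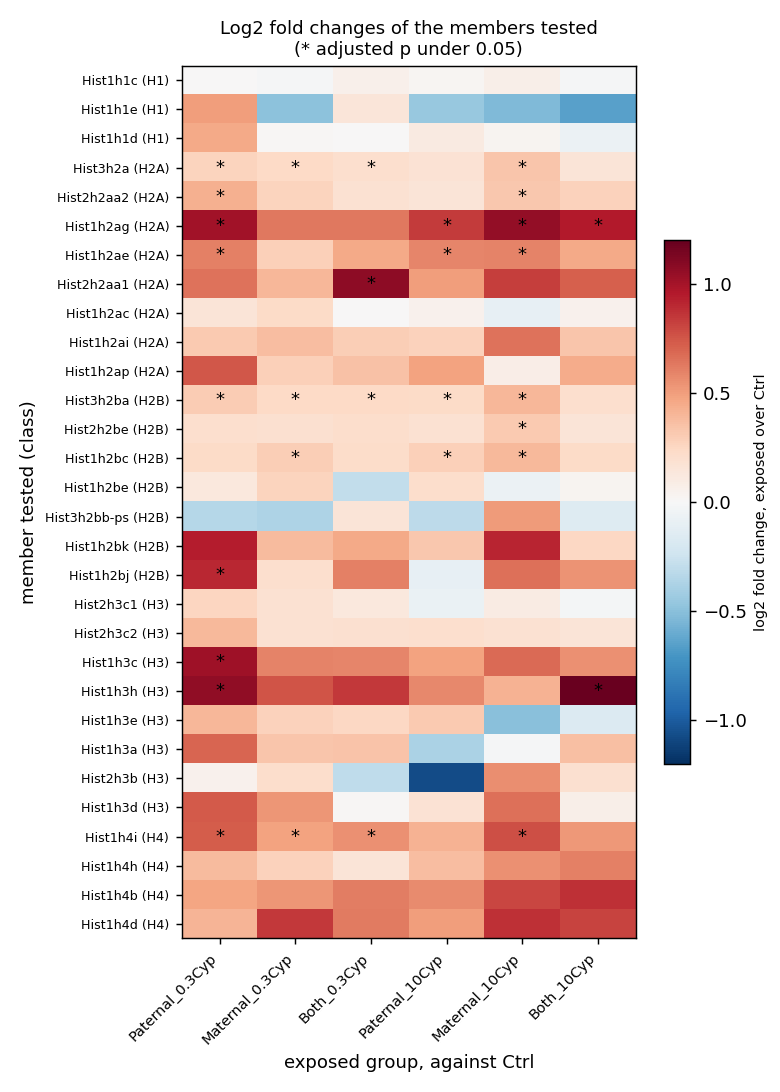
Log2 fold changes (exposed group over Ctrl) of the 30 tested members, with members in rows by class and falling mean level and the 6 exposed groups in columns. Stars mark the 31 values with an adjusted p under 0.05, all of them higher than Ctrl. Hist1h2ag is starred in 4 columns and Hist3h2ba in 5, while no H1 gene is starred.

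The members leaned upward in every comparison, while the genes of the table as a whole did not. The median log2 fold change of the 30 members was 0.42 in Paternal_0.3Cyp, 0.27 in Maternal_0.3Cyp, 0.23 in Both_0.3Cyp, 0.22 in Paternal_10Cyp, 0.41 in Maternal_10Cyp and 0.24 in Both_10Cyp. The median of all tested genes lay between -0.01 and 0.01 in the same 6 comparisons. Between 24 and 29 of the 30 members had a positive value, where between 47.8% and 52.6% of all genes did. The 6 comparisons share the Ctrl libraries, so that their likeness is not independent evidence. Over all libraries no member was called lower by edgeR or by DESeq2, while limma voom called 1 lower in Paternal_10Cyp, and edgeR called 1 lower there within batch 2. At an unadjusted p under 0.05 edgeR had 13, 9, 9, 7, 11 and 10 members of either direction in the order above. In the joint test of the 6 exposed groups 4 of 30 members were called, Hist3h2a, Hist1h4i, Hist3h2ba and Hist1h2ag (edgeR adjusted p = 0.0142, 0.0157, 0.0194 and 0.0261). That is 13.3% of the members, below the 21.7% of all genes. With all 43 members tested in a fit without the filter, the number called was 9, 4, 4, 4, 8 and 2 from Paternal_0.3Cyp to Both_10Cyp, as with the filter, and 5 in place of 4 in the joint test of the 6 groups.

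By class, the calls fell on core histones. None of the 3 H1 genes was called in any exposed group, with class medians from -0.07 to 0.45. Of the 8 H2A genes tested, 4 rose in Paternal_0.3Cyp, 1 in Maternal_0.3Cyp, 2 in Both_0.3Cyp, 2 in Paternal_10Cyp, 4 in Maternal_10Cyp and 1 in Both_10Cyp. Of the 7 H2B genes, 2, 2, 1, 2, 3 and 0 rose in that order. Of the 8 H3 genes 2 rose in Paternal_0.3Cyp and 1 in Both_10Cyp. For H4, 1 of the 4 genes tested, Hist1h4i, rose in Paternal_0.3Cyp, Maternal_0.3Cyp, Both_0.3Cyp and Maternal_10Cyp. Class medians for H4 ran from 0.44 to 0.78, but its other 3 genes, with 0.356 to 0.474 CPM on average, did not pass the test.

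Hist3h2ba (ENSMUSG00000056895; chr11:58948920-58949533, plus strand) was higher in 5 of the 6 exposed groups. In Maternal_10Cyp its lowest, median and highest levels were 132, 143 and 172 CPM, against 81.2, 112 and 131 CPM in Ctrl. These 2 groups did not overlap. The log2 fold change was 0.40 ± 0.09 (SE; edgeR adjusted p = 0.000537). In Paternal_0.3Cyp the levels were 97.1, 118 and 244 CPM, and 4 of 12 libraries lay above the highest Ctrl library. The log2 fold change there was 0.30 ± 0.08 (adjusted p = 0.00669). Maternal_0.3Cyp ranged from 113 to 139.9 CPM around a median of 129.8 and Both_0.3Cyp from 117 to 144 around 131. Every library of these 2 groups was above the Ctrl median. Their log2 fold changes were 0.24 ± 0.08 each (adjusted p = 0.0286 and 0.0285). Paternal_10Cyp had 109, 121 and 164 CPM and a log2 fold change of 0.23 ± 0.09 (adjusted p = 0.0417). Both_10Cyp had 106, 119 and 156 CPM and was not called.

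Hist3h2a (ENSMUSG00000078851; chr11:58954685-58956830, plus strand) lies next to it and showed a like pattern. In Maternal_10Cyp its lowest, median and highest levels were 106, 115 and 124 CPM, against 83.0, 91.6 and 103 CPM in Ctrl, again without overlap. The log2 fold change was 0.33 ± 0.08 (adjusted p = 0.000633). Maternal_0.3Cyp had 99.3, 106 and 119 CPM, Both_0.3Cyp 99.0, 105 and 115 CPM, and Paternal_0.3Cyp 78.3, 105 and 174 CPM. In the first 2 of these, 9 of 12 libraries lay above the highest Ctrl library. The log2 fold changes were 0.24 ± 0.07 in Maternal_0.3Cyp (adjusted p = 0.0120), 0.21 ± 0.07 in Both_0.3Cyp (0.0265) and 0.27 ± 0.07 in Paternal_0.3Cyp (0.00490). Paternal_10Cyp had a median of 98.5 CPM and Both_10Cyp of 101 CPM, and neither was called. Between the 2 genes lies the H2B pseudogene Hist3h2bb-ps, at 0.445 CPM on average, whose log2 fold changes ran from -0.37 to 0.51 with no call.

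The promoters of both genes and of Hist1h2ag are shown because each of these members was called in 4 or more groups. They were taken from RefSeq (GRCm38.p6), 250 bases before to 50 after the start, 5′ to 3′ on the strand of the gene. Capitals mark 3 motifs, each searched on both strands. The first is the CCAAT box with the letters CCAAT. The second is the TATA box with the letters TATAAA. The third is the octamer ATTTGCAT, bound by Oct factors in histone promoters.
Hist3h2ba: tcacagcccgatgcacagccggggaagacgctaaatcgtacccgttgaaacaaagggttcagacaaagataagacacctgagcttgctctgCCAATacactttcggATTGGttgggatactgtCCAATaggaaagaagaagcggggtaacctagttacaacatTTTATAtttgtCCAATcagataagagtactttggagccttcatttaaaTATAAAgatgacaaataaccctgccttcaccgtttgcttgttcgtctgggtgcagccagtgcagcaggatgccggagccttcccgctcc
Hist3h2a: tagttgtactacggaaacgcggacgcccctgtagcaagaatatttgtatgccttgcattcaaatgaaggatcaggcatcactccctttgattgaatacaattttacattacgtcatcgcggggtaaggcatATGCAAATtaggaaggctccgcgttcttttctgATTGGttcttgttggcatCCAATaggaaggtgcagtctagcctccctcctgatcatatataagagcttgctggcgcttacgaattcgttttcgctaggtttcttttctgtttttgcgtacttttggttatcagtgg
Hist1h2ag: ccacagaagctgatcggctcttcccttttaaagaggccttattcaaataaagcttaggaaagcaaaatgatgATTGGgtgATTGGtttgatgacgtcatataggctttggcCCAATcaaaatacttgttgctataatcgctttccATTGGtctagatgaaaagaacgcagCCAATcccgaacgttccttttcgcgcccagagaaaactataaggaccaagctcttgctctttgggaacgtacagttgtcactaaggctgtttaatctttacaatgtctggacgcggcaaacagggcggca
They are chr11:58948661-58948960 (plus), chr11:58954435-58954734 (plus) and chr13:22042900-22043199 (minus). Promoters were found for 39 of the 43 members, in 40 windows, since the H2B gene Hist1h2be has 2. The CCAAT box was present in all 3 H1, 11 H2A, 8 H2B and 10 H3 promoters, in 2 of 8 H4 promoters and in 37.4% of all 32851 promoters. The TATA box was present in 37.5% to 66.7% of a class and 13.6% of all promoters. The octamer was present in 5 of 11 H2A and 3 of 8 H2B promoters, in none of the H1, H3 and H4 promoters, and in 1.74% of all. Hist1h4i, an H4 gene that was also called in 4 groups but whose promoter is not shown, has no CCAAT box in this window. These are matches of letters and not binding sites.

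**Figure D3:**
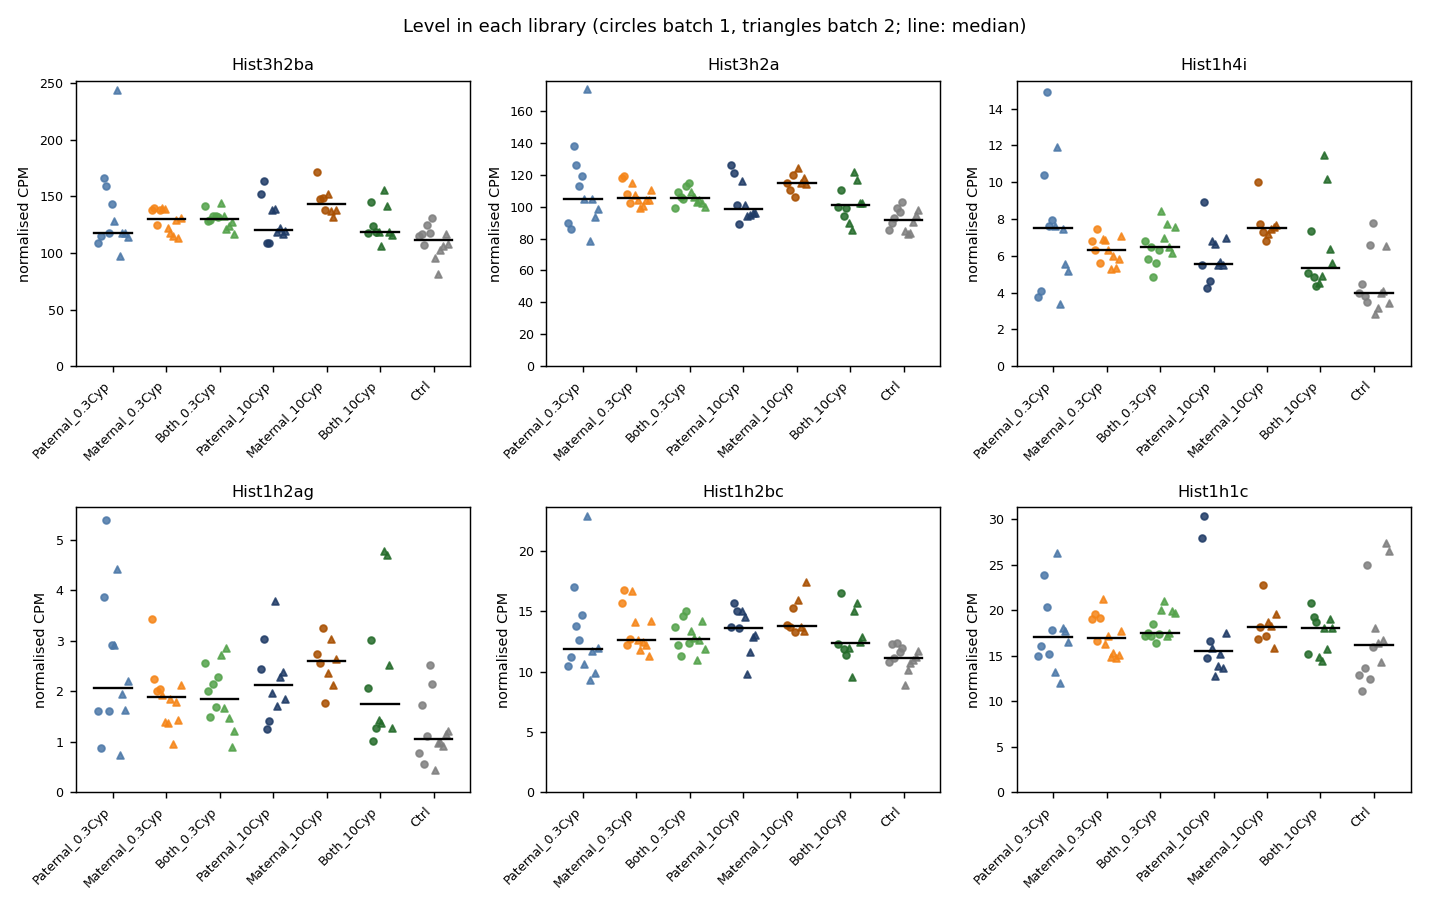
Normalised CPM of 6 members in each of 76 libraries, with the 6 exposed groups left of Ctrl. Circles are batch 1, triangles batch 2 and lines the group medians. Hist3h2ba and Hist3h2a in Maternal_10Cyp lie above all Ctrl libraries, while Hist1h1c overlaps Ctrl in every group.

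The largest changes among H2A genes were in members of low level. Hist1h2ag (ENSMUSG00000069301; chr13:22042460-22042944, minus strand) had lowest, median and highest levels of 1.77, 2.60 and 3.25 CPM in Maternal_10Cyp, against 0.440, 1.05 and 2.52 CPM in Ctrl. In Maternal_10Cyp 5 of 8 libraries lay above the highest Ctrl library. The log2 fold change was 1.05 ± 0.28 (adjusted p = 0.00226). In Paternal_0.3Cyp, with 0.740, 2.07 and 5.39 CPM, it was 1.004 ± 0.26 (adjusted p = 0.00483), in Both_10Cyp, with 1.02, 1.76 and 4.78 CPM, 0.95 ± 0.26 (0.0329), and in Paternal_10Cyp, with 1.25, 2.12 and 3.78 CPM, 0.84 ± 0.27 (0.0225). All 4 groups overlapped Ctrl. In Maternal_0.3Cyp and Both_0.3Cyp it was 0.64 in each and missed the threshold (adjusted p = 0.0610 and 0.0627). Hist1h2ag shares 79.8% of its 31-base words with other genes, most of them with Hist1h2ap, so that its own level is uncertain. Summed over 6 alike Hist1h2a copies, the log2 fold change was 0.76 ± 0.22 in Maternal_10Cyp (adjusted p = 0.00519), 0.75 ± 0.20 in Paternal_0.3Cyp (0.00662) and 0.56 ± 0.21 in Paternal_10Cyp (0.0464), and in Both_10Cyp the sum missed the threshold with 0.64 ± 0.21 (0.0577). The sum also missed the threshold in the joint test of the 6 exposed groups (edgeR adjusted p = 0.0544), in which Hist1h2ag alone was called.

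Hist1h2ae (ENSMUSG00000069272; chr13:23570517-23571220, minus strand), another H2A gene, had 1.22, 2.10 and 2.67 CPM in Maternal_10Cyp, 0.999, 1.67 and 3.66 CPM in Paternal_0.3Cyp and 1.06, 1.74 and 3.55 CPM in Paternal_10Cyp, against 0.568, 1.44 and 2.13 CPM in Ctrl. All 3 groups overlapped Ctrl and had log2 fold changes of 0.60 ± 0.22, 0.60 ± 0.20 and 0.59 ± 0.21 (adjusted p = 0.0251, 0.0205 and 0.0354). Hist2h2aa1 and Hist2h2aa2 (chr3:96245497-96246082, plus, and chr3:96239749-96240276, minus) are near-identical copies of 1 H2A gene. Hist2h2aa2 was called in Paternal_0.3Cyp (0.43 ± 0.11, adjusted p = 0.00499) and Maternal_10Cyp (0.32 ± 0.12, 0.0289), with medians of 12.3 and 13.0 CPM against 10.4 CPM in Ctrl. Hist2h2aa1 was called in Both_0.3Cyp (1.07 ± 0.40, adjusted p = 0.0465), with a median of 1.91 CPM against 0.743 CPM in Ctrl. The split of reads between such copies is an estimate, and their sum is the safer value. The sum had medians of 11.9 to 14.2 CPM in the 6 exposed groups, lowest in Paternal_10Cyp and highest in Maternal_10Cyp, against 10.8 CPM in Ctrl. All 6 ranges overlapped Ctrl. Both genes also share 31-base words with the annotated gene Gm20634, all of them in Hist2h2aa2 and 89.7% in Hist2h2aa1. Summed, the pair rose in 5 of the 6 groups, by 0.44 ± 0.09 in Paternal_0.3Cyp (adjusted p = 0.00233) and by 0.27 to 0.38 in 4 others (0.00257 to 0.0401), and had 0.19 ± 0.10 in Paternal_10Cyp (0.129). In the joint test of the 6 exposed groups the summed pair was called (edgeR adjusted p = 0.00825).

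Among the H2B genes, Hist1h2bc (ENSMUSG00000018102; chr13:23684199-23692908, plus strand) separated Maternal_10Cyp from Ctrl. Its lowest, median and highest levels were 13.3, 13.8 and 17.4 CPM in Maternal_10Cyp, against 8.86, 11.1 and 12.4 CPM in Ctrl, with no overlap. The log2 fold change was 0.39 ± 0.10 (adjusted p = 0.00183). Maternal_0.3Cyp, with 11.3, 12.7 and 16.8 CPM, had 0.30 ± 0.09 (adjusted p = 0.0161), and Paternal_10Cyp, with 9.80, 13.7 and 15.7 CPM, 0.28 ± 0.10 (0.0288). In each of these 2 groups 8 libraries lay above the highest Ctrl library. Hist2h2be (ENSMUSG00000068854; chr3:96221119-96223738, plus strand), which shares 2.82% of its 31-base words with other genes, the lowest share of the members in the table, was called in Maternal_10Cyp. It had 16.1, 18.8 and 20.2 CPM there, against 10.4, 14.8 and 18.7 CPM in Ctrl, and 4 of its 8 libraries lay above the highest Ctrl library. The log2 fold change was 0.32 ± 0.10 (adjusted p = 0.00904). Hist1h2bj (ENSMUSG00000069300; chr13:22043214-22043676, plus strand) was called in Paternal_0.3Cyp, with 0.220, 0.411 and 1.00 CPM against 0.0538, 0.266 and 0.565 CPM in Ctrl (0.90 ± 0.30, adjusted p = 0.0230). It is the divergent neighbour of Hist1h2ag, and the 2 promoter windows overlap.

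Hist1h4i (ENSMUSG00000060639; chr13:22040636-22041362, minus strand), the H4 gene with the highest level in this tissue, lies close to Hist1h2ag and Hist1h2bj on chromosome 13. Its lowest, median and highest levels were 3.40, 7.52 and 14.9 CPM in Paternal_0.3Cyp, 5.29, 6.31 and 7.48 CPM in Maternal_0.3Cyp, 4.83, 6.48 and 8.41 CPM in Both_0.3Cyp and 6.81, 7.49 and 10 CPM in Maternal_10Cyp, against 2.81, 3.98 and 7.79 CPM in Ctrl. In Maternal_10Cyp every library was above 11 of the 12 Ctrl libraries. The log2 fold changes in these groups were 0.72 ± 0.17, 0.48 ± 0.17, 0.55 ± 0.17 and 0.77 ± 0.185 (adjusted p = 0.00326, 0.0318, 0.0174 and 0.000953). Paternal_10Cyp (median 5.58 CPM) and Both_10Cyp (5.35 CPM) had 0.41 and 0.52 and missed the threshold (0.0778 and 0.0646). The other H4 genes named by the rule, Hist1h4b, Hist1h4d and Hist1h4h, had positive values in every group, from 0.15 to 0.88, with the lowest adjusted p of 0.0568 for Hist1h4d in Maternal_10Cyp.

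For H3, the calls were on members near the limit of detection. Hist1h3h (ENSMUSG00000101355; chr13:21717659-21718069, plus strand) had 0.268, 0.613 and 1.59 CPM in Both_10Cyp and 0.0986, 0.513 and 1.63 CPM in Paternal_0.3Cyp, against 0.103, 0.261 and 0.720 CPM in Ctrl. Both groups overlapped Ctrl, and the log2 fold changes were 1.19 ± 0.35 (adjusted p = 0.0411) and 1.06 ± 0.35 (0.0184). It shares 94.2% of its 31-base words, most with Hist1h3i, and the sum of these 2 genes was called in Paternal_0.3Cyp (0.90 ± 0.28, adjusted p = 0.0133) and Both_0.3Cyp (0.77 ± 0.28, 0.0386), and missed the threshold in Both_10Cyp (0.80, 0.0733). Hist1h3c (ENSMUSG00000069310; chr13:23744973-23745602, minus strand), 1 of 3 members whose stem-loop reads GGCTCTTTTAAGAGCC, had 0.367, 0.904 and 4.12 CPM in Paternal_0.3Cyp, against 0.207, 0.548 and 1.66 CPM in Ctrl (1.02 ± 0.31, adjusted p = 0.0132). The sum of the 3 Hist2h3 copies was called in Paternal_0.3Cyp and in none of the other 5 groups (0.31 ± 0.12, adjusted p = 0.0455), with medians of 7.01 CPM there and 5.51 CPM in Ctrl. Hist2h3b alone had -1.07 in Paternal_10Cyp (adjusted p = 0.119).

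The clustered linker histone genes gave no call in any of the 6 comparisons (edgeR, adjusted p from 0.215 to 0.992, and 0 at an unadjusted p under 0.05). Hist1h1c (ENSMUSG00000036181; chr13:23738808-23740367, plus strand), the third most abundant member by CPM, had medians of 17.1, 16.9, 17.5, 15.5, 18.2 and 18.0 CPM in Paternal_0.3Cyp, Maternal_0.3Cyp, Both_0.3Cyp, Paternal_10Cyp, Maternal_10Cyp and Both_10Cyp, against 16.2 CPM in Ctrl. The ranges overlapped throughout, from 11.1 to 27.4 CPM in Ctrl, and the log2 fold changes lay between -0.02 and 0.07 with standard errors of 0.12 to 0.14. The values had opposite signs within the 2 batches of the labels. Against Ctrl, Hist1h1c had log2 fold changes of 0.20 to 0.57 within batch 1 and of -0.42 to -0.05 within batch 2, and the Ctrl medians were 13.3 CPM in batch 1 and 17.4 CPM in batch 2. Within batch 2 the value of -0.42 in Paternal_10Cyp was called lower (adjusted p = 0.0457). The difference between batches was -0.99 in Paternal_10Cyp (unadjusted p = 6.12e-05, edgeR adjusted p = 0.0975), and -0.56 to -0.25 in the 5 others, all of which share the Ctrl libraries. Hist1h1e had values from -0.65 to 0.50 and Hist1h1d from -0.07 to 0.45, at low mean levels of 0.570 and 0.417 CPM. In the joint test of the 6 exposed groups Hist1h1e had an unadjusted p of 0.0154 (edgeR adjusted p = 0.0639). Whether H1 genes differ from core histone genes was not tested.

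The 9 other tested members were not called in any exposed group (edgeR, 2 of their values at an unadjusted p under 0.05). They were Hist1h2ac, Hist1h2ai, Hist1h2ap, Hist1h2be, Hist1h2bk, Hist1h3a, Hist1h3d, Hist1h3e and Hist3h2bb-ps, with levels of 0.298 to 1.06 CPM on average. Hist1h2bk, an H2B gene beside Hist1h4i, had 0.94 ± 0.43 in Paternal_0.3Cyp (adjusted p = 0.0888) and 0.92 ± 0.47 in Maternal_10Cyp (0.109). Grouped by transcript end, the median log2 fold change of the 10 tested members with under 100 bases after the stem-loop was 0.72 in Paternal_0.3Cyp, 0.36 in Maternal_0.3Cyp, 0.52 in Both_0.3Cyp, 0.43 in Paternal_10Cyp, 0.67 in Maternal_10Cyp and 0.54 in Both_10Cyp. For the 14 members with 100 or more bases it was 0.40, 0.24, 0.17, 0.19, 0.14 and 0.06 in that order, and for the 6 without the stem-loop 0.22, 0.26, 0.21, 0.23, 0.46 and 0.21. The difference between these sets was not tested, and the sets also differ in level and class.

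Some calls rested on the samples that entered the fit. With only the 2 groups compared, 0 of 17 members and 0 of 13717 genes were called in Paternal_0.3Cyp (edgeR, 8 members at an unadjusted p under 0.05). In Both_10Cyp 0 of 17 members (8) but 557 of 13806 genes were called. Leaving out 1 library at a time, the count in Paternal_0.3Cyp stayed between 6 and 12 members and that in Maternal_10Cyp between 7 and 11. In Maternal_0.3Cyp the count was 2 without Ctrl replicate 3, 7 or 8 or without Maternal_0.3Cyp replicate 5, and 7 without Ctrl replicate 5. In Both_0.3Cyp it was 2 without Both_0.3Cyp replicate 7. In Paternal_10Cyp it was 0 without Ctrl replicate 7 or Paternal_10Cyp replicate 2 or 6, 1 without Paternal_10Cyp replicate 5, and 2 without Ctrl replicate 8 or 9 or Paternal_10Cyp replicate 1. In Both_10Cyp it was 0 without Ctrl replicate 3, 7, 8, 9 or 12 or Both_10Cyp replicate 2, 7 or 8, and 1 without Ctrl replicate 10 or 11 or Both_10Cyp replicate 1. In Maternal_10Cyp the calls of Hist3h2ba, Hist3h2a, Hist1h4i, Hist1h2ag, Hist1h2bc and Hist2h2be stood in all 20 of these fits. Those of Hist2h2aa2 were lost without Ctrl replicate 7 or 8 or Maternal_10Cyp replicate 1, 5 or 8 (log2 fold changes from 0.27, adjusted p up to 0.0591) and of Hist1h2ae without Maternal_10Cyp replicate 5 or 6 (from 0.52, up to 0.0658). In Paternal_0.3Cyp the calls of Hist1h2bj and Hist1h3c were lost without replicate 4 (0.75 and 0.76), that of Hist1h3h without replicate 8 (0.81) and that of Hist1h2ae without replicate 3, 4 or 8 (from 0.50). In Maternal_0.3Cyp the call of Hist3h2ba was lost without Ctrl replicate 3, 7 or 8 or Maternal_0.3Cyp replicate 5, and that of Hist1h4i without these or Ctrl replicate 12. In Both_0.3Cyp that of Hist3h2ba was lost without Ctrl replicate 7 or 8 or Both_0.3Cyp replicate 7. In Paternal_10Cyp the call of Hist3h2ba was lost in 9 of 22 fits, of Hist1h2ae in 8, of Hist1h2bc in 4 and of Hist1h2ag in 3. In Both_10Cyp that of Hist1h3h was lost in 11 of 22 and that of Hist1h2ag in 8. The call of Hist2h2aa1 in Both_0.3Cyp was lost in 16 of 24 such fits, with values from 0.89 to 1.34.

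The libraries differed along with the family as a whole. In Paternal_0.3Cyp replicate 8 was the highest library of its group in 13 of the 30 members, with 244 CPM of Hist3h2ba, and replicate 9 the lowest in 14. In Paternal_10Cyp replicate 2 was the highest in 15 members, and in Both_10Cyp replicate 7 in 13. The summed level of the 43 members had lowest, median and highest values of 237, 315 and 562 CPM in Paternal_0.3Cyp, 292, 327 and 355 in Maternal_0.3Cyp, 303, 327 and 354 in Both_0.3Cyp, 276, 298 and 410.2 in Paternal_10Cyp, 332, 356 and 383 in Maternal_10Cyp and 260.4, 302 and 391 in Both_10Cyp, against 228, 278 and 321 CPM in Ctrl. Maternal_10Cyp did not overlap Ctrl in this sum. Without the libraries high in embryonic globin, 5 members were called in Paternal_0.3Cyp and 0 in Both_10Cyp (edgeR, 4 at an unadjusted p under 0.05). Of 14315 genes, 2112 and 10 were called there. Without those high in diencephalon markers 0 members were called in Paternal_10Cyp (6) and 0 in Both_10Cyp (10), beside 1491 and 163 of 14297 genes.

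**Figure D4:**
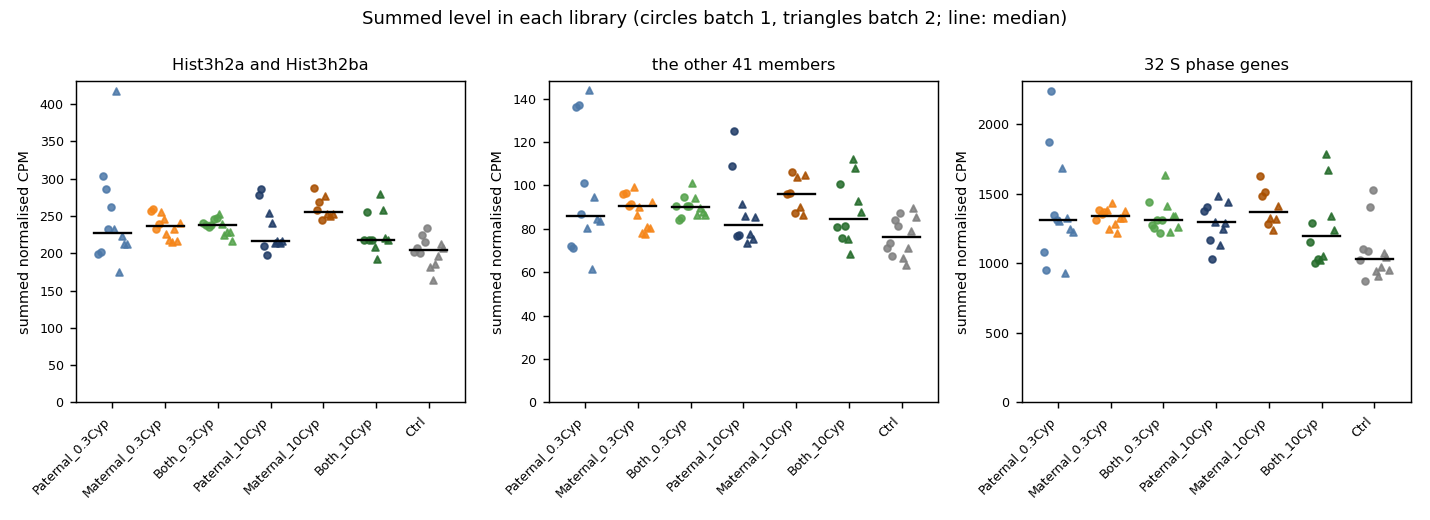
Summed normalised CPM in each of 76 libraries of Hist3h2a and Hist3h2ba, of the other 41 members and of 32 S phase genes, with the 6 exposed groups left of Ctrl. Circles are batch 1, triangles batch 2 and lines the group medians. The 32 S phase genes have a median of 1368 CPM in Maternal_10Cyp and 1034 CPM in Ctrl.

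Genes of DNA replication and mitosis moved with the histone genes. Beside these and later lists, 15.4%, 10.9%, 10.5%, 10.7%, 20.4% and 2.34% of all genes were called higher from Paternal_0.3Cyp to Both_10Cyp. The shares called lower were 12.2%, 12.8%, 11.8%, 10.8%, 20.4% and 1.58%. Of 32 S phase genes, 29 rose in Paternal_0.3Cyp, 25 in Maternal_0.3Cyp, 26 in Both_0.3Cyp, 15 in Paternal_10Cyp, 29 in Maternal_10Cyp and 5 in Both_10Cyp, and none was called lower. Their median log2 fold changes were 0.38, 0.35, 0.34, 0.25, 0.41 and 0.27. The 2 with the lowest p in the joint test were Dscc1, a subunit of a replication clamp loader, with 0.69 in Maternal_10Cyp (edgeR adjusted p = 0.00119), and E2f1, a transcription factor that drives S phase genes, with 0.57 (0.000204). Of 17 mitosis genes 14, 11, 12, 8, 13 and 2 rose in the same order, led by Cks2, a partner of cyclin-dependent kinases (0.86 in Maternal_10Cyp, adjusted p = 6.81e-05), and Ccnb2, a mitotic cyclin (0.64, 0.000401). The summed level of the S phase genes ran from 1242 over 1368 to 1628 CPM in Maternal_10Cyp and from 931 over 1308 to 2241 CPM in Paternal_0.3Cyp, against 873, 1034 and 1528 CPM in Ctrl (lowest, median, highest).

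The 11 histone genes outside the clusters, whose mRNAs mostly carry poly(A) tails, also rose. Of the 11, 10 rose in Paternal_0.3Cyp, 8 in Maternal_0.3Cyp, 11 in Both_0.3Cyp, 8 in Paternal_10Cyp, 11 in Maternal_10Cyp and 1 in Both_10Cyp, with medians of 0.32, 0.24, 0.32, 0.26, 0.43 and 0.24. The 2 with the lowest joint p were H3f3b, which encodes the replication-independent H3.3, with 0.30 in Maternal_10Cyp (adjusted p = 8.67e-05), and H2afz, which encodes H2A.Z, with 0.59 (0.000119). The 11 include the linker histone genes H1f0 and H1fx, named after their values were seen. In Maternal_10Cyp they had 0.46 (edgeR adjusted p = 0.000419) and 0.43 (0.00229), and in Paternal_0.3Cyp 0.27 (0.0218) and 0.44 (0.00333). Neither was called in Paternal_10Cyp or Both_10Cyp.

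Of the 20 measured genes for processing and decay of histone mRNA, 5 rose and 1 fell in Paternal_0.3Cyp, and 9 rose and 1 fell in Maternal_10Cyp. Counts in Maternal_0.3Cyp, Both_0.3Cyp, Paternal_10Cyp and Both_10Cyp were 5, 4, 5 and 0 that rose and 1, 1, 2 and 0 that fell. In each group the share of these 20 genes that fell was below the share of all genes called lower. The 2 with the lowest joint p went in opposite directions in Maternal_10Cyp: Snrpd3, a core protein of small nuclear ribonucleoproteins, had 0.34 (adjusted p = 8.67e-05), and Lsm11, a protein of the U7 particle that cuts histone pre-mRNA, had -0.35 (0.000474). Slbp, named after its values were seen because it binds the stem-loop, had 0.35 in Maternal_10Cyp (0.000540) and 0.28 in Paternal_0.3Cyp (0.00416). Of 21 histone chaperones and enzymes that acetylate new histones, 12 rose and 3 fell in Maternal_10Cyp. Those with the lowest joint p were Hat1, which acetylates new H4 (0.50, adjusted p = 0.000152), and Ipo4, an importin that carries histones (-0.23, 0.000149). In the other groups the counts were 10 and 1 in Paternal_0.3Cyp, 8 and 1 in Maternal_0.3Cyp, 9 and 2 in Both_0.3Cyp, 6 and 3 in Paternal_10Cyp and 1 and 1 in Both_10Cyp.

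Markers of dividing progenitors moved as well. All 9 intermediate progenitor markers rose in Paternal_0.3Cyp, Maternal_0.3Cyp and Maternal_10Cyp, and 7, 5 and 2 of them in Both_0.3Cyp, Paternal_10Cyp and Both_10Cyp. Their summed level ranged from 675 to 852 CPM around a median of 724 in Maternal_10Cyp, and from 337 to 1208 around 661 in Paternal_0.3Cyp, against 303 to 767 around 499 CPM in Ctrl. Of 12 radial glia markers 6, 5, 5, 3, 7 and 1 rose from Paternal_0.3Cyp to Both_10Cyp, and 1, 1, 2, 0, 2 and 0 fell. Of 8 deep-layer neuron markers 2, 2, 3, 2, 4 and 0 fell in that order. Of 9 erythroid markers 7 rose in Paternal_0.3Cyp, with a summed level of 1539 to 3753 around 1845 CPM, against 1365 to 1973 around 1501 CPM in Ctrl, and 0 in Maternal_10Cyp. In Maternal_0.3Cyp, Both_0.3Cyp, Paternal_10Cyp and Both_10Cyp 2, 2, 3 and 1 of them rose. In a bulk sample, more cells of a type and more RNA per cell cannot be told apart.

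The S phase level, itself higher in exposed groups, was put into the fit. With the mean log2 CPM of the S phase genes of each library as a covariate, 0 of the 30 members were called in each of the 6 comparisons (edgeR, 0, 1, 0, 2, 2 and 2 at an unadjusted p under 0.05 from Paternal_0.3Cyp to Both_10Cyp), and the members' median log2 fold change lay between -0.07 in Maternal_0.3Cyp and 0.09 in Maternal_10Cyp. In the same fit between 0 and 77 genes of the whole table were called per comparison. With the globin ratio (log2, embryonic over adult) as the covariate instead, the counts were 0, 0, 0, 1, 5 and 0 members. That fit called 44, 170, 10, 2289, 4023 and 132 of 14339 genes in the same order. With 2 surrogate variables they were 9, 5, 3, 7, 6 and 12 members, beside 3386, 3426, 2303, 5282, 4779 and 5517 of 14339 genes.

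**Figure D5:**
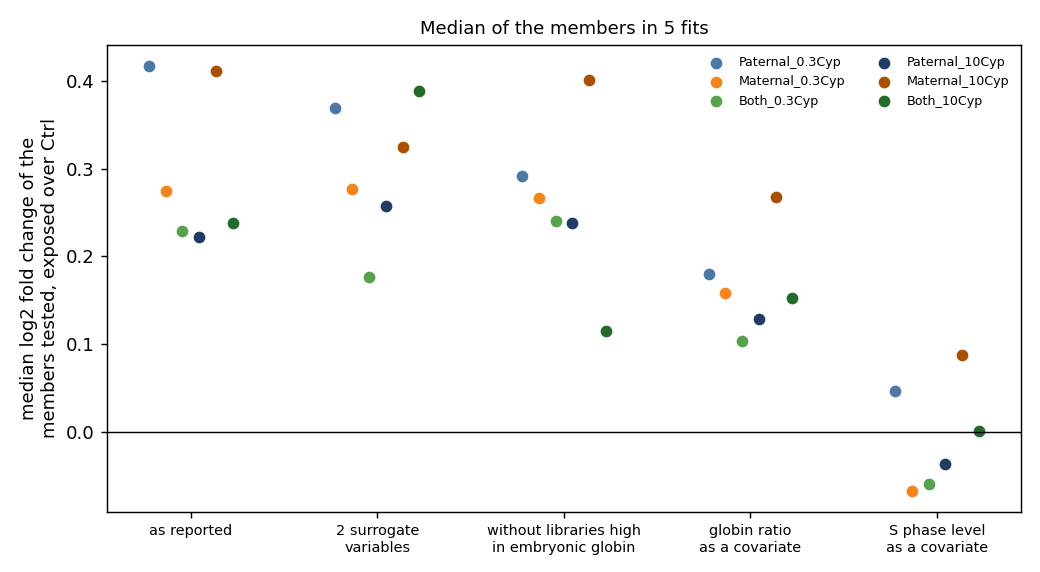
Median log2 fold change of the tested members (exposed over Ctrl) for the 6 exposed groups in 5 fits, from the reported one on the left to the one with the S phase level as a covariate on the right. Reported medians lie between 0.22 and 0.42. With the S phase level as a covariate they lie between -0.07 and 0.09.

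In the edgeR fit no member was called between doses, sexes or batches. In Paternal_10Cyp against Paternal_0.3Cyp 0 of 30 members were called (edgeR; 5 at an unadjusted p under 0.05), where 0.0628% of all genes were. In Maternal_10Cyp against Maternal_0.3Cyp it was 0 members (1 unadjusted) and 0% of all genes, and in Both_10Cyp against Both_0.3Cyp 0 members (1 unadjusted) and 0.00697%. DESeq2 and limma voom also called 0 members in these 3 comparisons. Median log2 fold changes of dose 10 over dose 0.3 were -0.16 with an exposed father, 0.09 with an exposed mother and -0.01 with both. Of single members, Hist1h2bj had the lowest p between doses, with -0.998 ± 0.31 in Paternal_10Cyp against Paternal_0.3Cyp (adjusted p = 0.221).

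Male embryos gave 0 calls against female ones (edgeR, 1 at an unadjusted p under 0.05; 0 by DESeq2 and limma voom), where 0.0907% of all genes were called. Batch 2 gave 0 calls against batch 1 by edgeR (2 at an unadjusted p under 0.05), where 25% of all genes were called. For batch, DESeq2 called 0 members and 3860 of 14339 genes, and limma voom 5 members, all lower, and 6394 genes. Within the batches, each group having its own mean per batch, 0 members were called in batch 1 in every comparison. In batch 2 the number called was 6 in Paternal_0.3Cyp, 4 in Maternal_0.3Cyp, 2 in Both_0.3Cyp, 2 in Paternal_10Cyp, 8 in Maternal_10Cyp and 5 in Both_10Cyp, all higher but Hist1h1c in Paternal_10Cyp. A separate fit of batch 2 alone called 5, 2, 2, 3, 7 and 5 of 31 members in that order. It called 1313, 2313, 1323, 2090, 3958 and 2142 of 14393 genes. Batch 1 alone had 0 members and 4, 0, 0, 187, 465 and 0 of 14303 genes. Members' medians within batch 1 were 0.40, 0.25, 0.18, 0.21, 0.34 and 0.10 in that order, and within batch 2 0.44, 0.32, 0.26, 0.14, 0.47 and 0.37. The difference between the batches was called for 0 members in all 6 comparisons (edgeR; 1, 2, 2, 2, 2 and 6 at an unadjusted p under 0.05), where 0.00697% of all genes were called in Paternal_10Cyp and 0% in the other 5. For Hist1h2ag in Both_10Cyp the values were 0.29 in batch 1 and 1.46 in batch 2 (difference 1.17, unadjusted p = 0.0314, adjusted p = 0.379).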

How the data were processed

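The deposited table holds expected counts, the estimated number of reads of each gene. Per the submitters' processing notes the authors used Salmon 1.10.1, Trim Galore 0.5.0 and the mm10 build. Its values are whole numbers, and the poly(A) selection of the libraries, the annotation release and the steps to whole numbers are not given in the sources used here. Symbols and transcripts came from GENCODE M21, with a symbol for 14810 of 14823 genes.

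All 76 libraries entered 1 fit with edgeR 4.0.16 (R 4.3.3): a filterByExpr filter by group, which removed 484 genes and left 14339, TMM scaling, robust quasi-likelihood, terms for group, batch and sex, 2-sided tests with Benjamini-Hochberg adjustment over all tested genes and calls at 0.05. CPM are on TMM-scaled totals. Named members were the 2 with the highest level and the 3 with the lowest joint p in each class and every called member (21 in all). Genes outside the family were the 2 of lowest joint p in each of 5 pathway lists, with Slbp, H1f0 and H1fx named in addition. A sixth pathway list, other RNAs without a poly(A) tail, had 0 genes in the table. The other lists were cell type markers: interneurons, deep-layer neurons, upper-layer neurons, intermediate progenitors, radial glia, erythroid cells, microglia, endothelial cells, meninges and fibroblasts, diencephalon and choroid plexus. The members, lists and tests were chosen with earlier results of these data known. Other settings used DESeq2 1.42.0, limma 3.58.1 and sva 3.50.0, a replicate block, each batch alone, covariates, and leaving out each library in turn. Dropping the libraries whose globin or diencephalon markers exceeded the median by over 3 MAD was added after seeing the data. No 2 libraries were identical (smallest chi-square per gene 3.10). Same-numbered libraries of different groups had a median residual correlation of 0.00562, and 162 of 210 pairs had 0.1 or less, so that the numbers do not pair libraries.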

Additional observations from a re-analysis of the deposited data

Results flagged for a closer look

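One library stood apart within its group when each of 21 named members was examined in the 3 groups of 8 or 10 samples, 63 sets of values in all. The rule marks about 1 in 20 such sets by chance, so that 1 of 63 is no more than chance gives. It was Maternal_10Cyp replicate 1 (batch 1), whose Hist1h4i level was 10 CPM, against 7.72 CPM in the next library of the group and 6.81 CPM in the lowest. The same library was the highest of its group in the summed S phase genes, at 1628 CPM. Without any single library the Maternal_10Cyp difference from Ctrl in Hist1h4i stayed between 0.70 and 0.87 on the log2 scale.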

How the results depend on the processing

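Counts of members called (Paternal_0.3Cyp 9, Maternal_0.3Cyp 4, Both_0.3Cyp 4, Paternal_10Cyp 4, Maternal_10Cyp 8, Both_10Cyp 2, joint test 4) were within 1.5 times under DESeq2 size factors and without the filter. They were otherwise as follows, naming the groups that moved. Brackets give the genes called in the whole table, of 14339 tested unless another total is given. Batch 1 alone gave 0 in all (4, 0, 0, 187, 465 and 0 of 14303, and 0 jointly). Batch 2 alone gave 5 (1313 of 14393), 2 (2313) and 2 (1323) at dose 0.3 in the order father, mother and both. It gave 5 in Both_10Cyp (2142) and 0 jointly (855). The S phase covariate gave 0 in all (between 0 and 77 per group, and 51 jointly). The globin covariate gave 0 (44), 0 (170), 0 (10), 1 (2289), 5 (4023), 0 (132) and 0 jointly (578), and 2 for batch (4493). With 2 surrogate variables the fit gave 7 in Paternal_10Cyp (5282), 12 in Both_10Cyp (5517) and 7 jointly (4429). With only the 2 groups compared it was 0 (0 of 13717), 7 (4642 of 13720) and 7 (4807 of 13703) at dose 0.3. In Both_10Cyp it was 0 (557 of 13806). No batch term gave 2 in Paternal_10Cyp (1880) and 0 in Both_10Cyp (55). Limma voom gave 7 in Maternal_0.3Cyp (5102), 9 in Both_0.3Cyp (5535), 14 in Maternal_10Cyp (7071), 8 jointly (5977) and 5 for batch (6394). DESeq2 gave 1 in Both_10Cyp (1085) and 7 jointly (3734). Without libraries high in embryonic globin it was 5 in Paternal_0.3Cyp (2112 of 14315), 0 in Both_10Cyp (10) and 1 for batch (3919). Without those high in diencephalon markers it was 0 in Paternal_10Cyp (1491 of 14297) and Both_10Cyp (163). The causes were not tested.

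With the replicate block the counts were 9, 5, 3, 1, 6 and 0, and 2 jointly, and 23 of the 31 called values kept their call. Of 14339 genes 4428, 3688, 3714, 2385, 4593 and 342 were called in that fit, and 2769 jointly. Since the numbers do not pair libraries, a lost call is not a weaker effect.

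Leaving out 1 library gave 6 to 12, 2 to 7, 2 to 6, 0 to 6, 7 to 11 and 0 to 3 members. Values that changed sign, all under the S phase covariate, were -0.019 for Hist1h3c in Paternal_0.3Cyp, and -0.004 for Hist3h2ba and -0.057 for Hist1h4i in Maternal_0.3Cyp. Depth limits the 13 untested members and those under 1 CPM, and sequence shared with other genes limits the 25 members that share over 50% of their 31-base words.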

Other observations

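The stem-loop search also matched 8 genes of the table that are not clustered histone genes. They were H2afx, which encodes the variant H2A.X, Trim17, which overlaps Hist3h2a, and Nova2, Syncrip, Xpo5, Tmem164, Prr33 and D430019H16Rik. A match is a run of letters anywhere in an annotated transcript and not evidence of a processed end.

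Few interneuron markers were called in any group, with 1 of 8 higher in Both_0.3Cyp and 1 higher and 1 lower in Maternal_10Cyp. In Paternal_0.3Cyp, Maternal_0.3Cyp and Paternal_10Cyp 2, 1 and 1 were lower, and in Both_10Cyp 0 were called. Upper-layer neuron markers had 3 lower and 1 higher of 8 in Paternal_0.3Cyp, and median log2 fold changes from -0.15 to -0.03. Of 6 microglia and 6 meninges markers 0 were called in any comparison. Of 6 endothelial markers 1 or 2 were lower in all exposed groups but Both_10Cyp. Between 1.58% and 20.4% of all genes were called lower in the 6 comparisons. Of 5 choroid plexus markers 1 was lower in Maternal_0.3Cyp. Of 7 diencephalon markers 4 were higher in Paternal_0.3Cyp, with a highest summed level of 383 CPM in replicate 9. Within its own group this library had the lowest level of 14 tested members.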
